A study of Homo sapiens with 8 samples.

Results

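The 10 genes described here are the transcriptional coactivators YAP1 and WWTR1 (the gene of TAZ), their DNA-binding partners TEAD1 and TEAD4, the target genes CCN1 (CYR61), CCN2 (CTGF) and ANKRD1, and the feedback regulators AMOTL2, LATS2 and AJUBA. They were chosen by name and found in the deposited table by Ensembl identifier. All 10 of 10 were present among 43869 genes with values, and 9 of them were among the 12701 genes that reached log2 of 25 reads in at least 1 library, which are called expressed genes below. H3K27ac, the acetylation of histone H3 at lysine 27 found at active promoters and enhancers, was measured at 125 peaks within 20 kb of these genes, out of 126470 peaks in all, and 92 of the 125 reached log2 of 15 reads in at least 1 library.

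The cells were H3122, an established human lung adenocarcinoma line driven by the EML4-ALK fusion. Treatment-naive cells, whose label names 0.1% DMSO, were compared with the lines erCriz0, erAlec0 and erLor0, which had been brought to resistance by stepwise escalation and were kept in crizotinib at 0.5 µM, alectinib at 2 µM and lorlatinib at 2 µM, respectively. All 4 lines derive from H3122, and RNA was taken from the resistant lines after 48 h without inhibitor. The study's methods state no such interval for the H3K27ac cells. RNA and H3K27ac of a resistant line may therefore come from different drug states wherever they are set side by side below. Each line gave 1 RNA library and 1 H3K27ac library, and each resistant line is a single derivative, so the line, the inhibitor and the library cannot be told apart, and no value below has a replicate, an error or a test. The other 4 samples of the series were not analysed here.

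YAP and TAZ are coactivators that do not bind DNA themselves and act through TEAD factors. When the Hippo kinases MST and LATS are active, they phosphorylate YAP and TAZ, which are then held in the cytoplasm and degraded. When the kinases are inactive, YAP and TAZ enter the nucleus and TEAD-bound genes such as CCN1, CCN2 and ANKRD1 are transcribed, among them LATS2 and AMOTL2, whose products restrain YAP and TAZ in turn. Activity of the proteins depends on where they are in the cell, which neither RNA nor H3K27ac shows.

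TEAD factors recognize the letters GGAATG, or CATTCC on the other strand. RefSeq promoters of GRCh38.p14 were at hand for 7 of the 10 genes, with 10 start sites, and those of TEAD1, TEAD4 and CCN1 are named only. The 250 bases before the start are shown for 5 of these genes as examples, and the copies in the promoters not shown are given below. Sequences run 5′ to 3′ on the strand of the gene, with every GGAATG or CATTCC in capitals.
CCN2 promoter, chr6:131951373-131951622, minus strand: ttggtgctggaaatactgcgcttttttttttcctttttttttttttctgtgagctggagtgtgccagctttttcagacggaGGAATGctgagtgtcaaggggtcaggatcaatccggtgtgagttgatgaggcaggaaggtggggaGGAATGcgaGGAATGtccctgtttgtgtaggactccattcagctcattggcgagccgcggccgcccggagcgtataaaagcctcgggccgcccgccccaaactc
ANKRD1 promoter, chr10:90921088-90921337, minus strand: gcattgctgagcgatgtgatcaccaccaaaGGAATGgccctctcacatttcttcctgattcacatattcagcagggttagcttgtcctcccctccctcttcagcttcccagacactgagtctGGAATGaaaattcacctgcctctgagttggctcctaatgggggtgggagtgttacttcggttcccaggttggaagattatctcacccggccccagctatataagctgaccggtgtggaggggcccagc
YAP1 promoter, chr11:102110197-102110446, plus strand: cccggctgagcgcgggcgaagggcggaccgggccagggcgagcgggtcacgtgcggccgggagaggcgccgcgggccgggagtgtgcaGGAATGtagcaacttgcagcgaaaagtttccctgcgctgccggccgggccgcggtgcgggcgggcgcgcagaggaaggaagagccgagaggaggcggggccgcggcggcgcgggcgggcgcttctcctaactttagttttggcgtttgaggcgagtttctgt
AMOTL2 promoter, chr3:134374448-134374697, minus strand: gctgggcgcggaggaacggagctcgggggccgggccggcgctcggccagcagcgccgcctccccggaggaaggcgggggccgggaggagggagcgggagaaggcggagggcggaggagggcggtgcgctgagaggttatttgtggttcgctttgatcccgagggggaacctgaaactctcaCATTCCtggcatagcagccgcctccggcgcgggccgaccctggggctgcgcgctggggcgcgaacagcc
WWTR1 promoter, chr3:149658026-149658275, minus strand: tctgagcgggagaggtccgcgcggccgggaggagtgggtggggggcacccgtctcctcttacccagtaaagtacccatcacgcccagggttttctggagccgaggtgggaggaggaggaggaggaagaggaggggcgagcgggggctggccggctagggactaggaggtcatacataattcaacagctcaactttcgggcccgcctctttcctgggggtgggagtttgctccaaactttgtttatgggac

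The CCN2 promoter holds 3 copies, whose first bases lie at −169, −104 and −95 counted from −1 at the base before the start. That of ANKRD1 holds 2, at −220 and −128, and those of YAP1 and AMOTL2 hold 1 each, at −162 and −69. The other RefSeq promoter of AMOTL2 (chr3:134375418-134375667) holds 0, as do the LATS2 promoter (chr13:21061587-21061836) and the other of WWTR1 (chr3:149703274-149703523). Of the AJUBA promoters, that at chr14:22982552-22982801 holds 0 and that at chr14:22976843-22977092 holds 1. Starts are those of RefSeq, and that of ANKRD1 lies inside the gene as the table gives it. The WWTR1 promoter at the start within its acetylated peak holds none. Among all 35116 RefSeq promoters, 11.9% hold at least 1 copy in these 250 bases on either strand, 0.940% at least 2 and 0.0826% at least 3. Of the 10 start sites of these genes, 5 hold at least 1. The AP-1 letters TGANTCA, whose matches on either strand can share bases with those of GGAATG, were found in 1 of the 10, that of ANKRD1, against 6.57% of all promoters. A match is a description of letters and not of a bound site.

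An rlog value is a log2 of reads scaled between libraries, drawn toward the mean of the feature where reads are few, so the changes of weak genes and peaks are understated. A change is the difference in rlog between a resistant line and naive cells, positive where the resistant line is higher. Genes or peaks with a change of at least 1 were counted as up and those with at most −1 as down. The 3 comparisons share the same naive library. The cell type was checked by its markers. EPCAM, CDH1, KRT8 and KRT18, which mark epithelium, had rlog values of at least 11.4 in every library, NKX2-1, a lung lineage factor, lay between 8.67 and 9.18, and EML4 and ALK were expressed in all 4. PTPRC, a leukocyte gene, was listed at 0, PECAM1 of endothelium at or below 0, and the fibroblast gene DCN at 1.64 or less. COL1A1, a fibroblast collagen, was an exception at 9.49 in naive cells and 10.08 in erLor0. ALK itself was up by 2.47 in erCriz0 and 1.40 in erAlec0.

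In RNA, 3 of the 10 genes were up in 1 line each. WWTR1 was up in erCriz0, CCN1 and AMOTL2 were up in erAlec0, no member was up in erLor0, and none was down in any line. That is 1 of 10 in erCriz0, where 2.65% of expressed genes were up and 1.65% down, 2 of 10 in erAlec0, against 2.46% up and 2.07% down, and 0 of 10 in erLor0, against 1.10% up and 0.740% down. The median change over the 10 genes was 0.34, 0.42 and 0.24 in erCriz0, erAlec0 and erLor0, against −0.02, 0.00 and 0.00 over all expressed genes. In all, 7 of 10 members were higher than naive in all 3 resistant lines. Without ANKRD1, which is not an expressed gene, this was 6 of 9, against 22.5% of expressed genes. WWTR1 and AMOTL2 lie on chromosome 3, one of those where the study's SNP array found recurrent amplifications in resistant lines. Its text does not say which part of chromosome 3, and the part of copy number in these values was not tested.

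**Figure D1:**
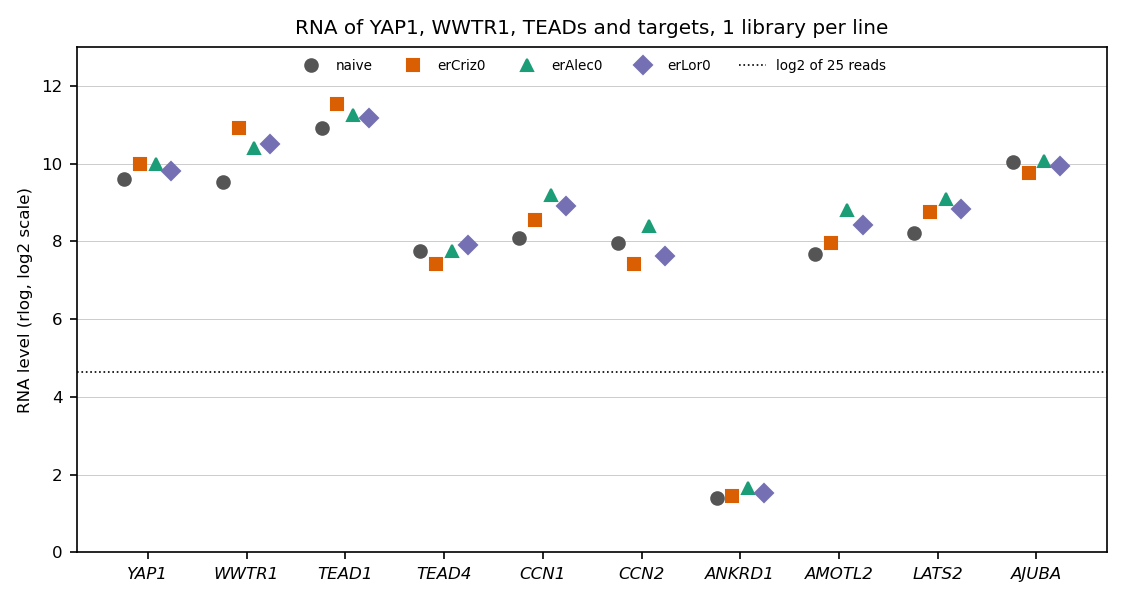
RNA level of each of the 10 genes (rlog, log2 scale) in naive, erCriz0, erAlec0 and erLor0 cells, with 1 point per library and no error bars because each line has 1 library. ANKRD1 lies below the dotted line at log2 of 25 reads in all 4 libraries, WWTR1 shows the widest range, 1.40, and the points for CCN1, CCN2, AMOTL2 and LATS2 are highest in erAlec0.

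Of the coactivators, YAP1 (ENSG00000137693.14, chr11:102110447-102233424 of hg38, plus strand, as in the table) had rlog levels of 9.60 in naive cells and 9.99, 9.99 and 9.81 in erCriz0, erAlec0 and erLor0. The resistant lines lay above naive by 0.39, 0.39 and 0.21, which is 1.31-fold at most. The levels in erCriz0 and erAlec0 were nearly the same. WWTR1 (ENSG00000018408.14, chr3:149517235-149736714, minus strand) had levels of 9.52, 10.92, 10.39 and 10.51 in the same order. Naive cells were the lowest and erCriz0 the highest. The change was 1.40 (2.64-fold), 0.87 (1.83-fold) and 0.99 (1.99-fold) in erCriz0, erAlec0 and erLor0, so erLor0 lay just below the limit. The members were chosen with earlier results of these data known, so the rise of WWTR1 is not independent evidence. Per kilobase of exon, the rlog level of YAP1 exceeded that of WWTR1 in naive cells, 6.94 against 6.46. In erCriz0 the order was the opposite, 7.33 against 7.86, and in erAlec0 both were at 7.33. In naive cells most of the gap came from the lengths, since the levels before division were 9.60 and 9.52. The lengths are of all annotated exons merged and not of the transcripts expressed, so levels of different genes compare only roughly.

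The TEAD factors diverged. TEAD1 (ENSG00000187079.17, chr11:12674421-12944737, plus strand) had levels of 10.91 in naive cells and 11.54, 11.26 and 11.18 in erCriz0, erAlec0 and erLor0, with changes of 0.63, 0.35 and 0.26. Its level was again lowest in naive and highest in erCriz0. TEAD4 (ENSG00000197905.9, chr12:2959330-3040676, plus strand) had levels of 7.76, 7.42, 7.76 and 7.92, and was lowest in erCriz0. Its changes were −0.33, 0.00 and 0.16. Per kilobase the rlog level of TEAD1 was above that of TEAD4 in all 4 lines, at 7.49 against 6.57 in naive cells and 8.12 against 6.24 in erCriz0. TEAD3 had an rlog level of 9.02 in naive cells and lay −0.56, 0.04 and −0.21 from it, and TEAD2 differed from naive by 0.12, 0.31 and 0.49 in erCriz0, erAlec0 and erLor0.

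Among the targets, CCN1 (ENSG00000142871.17, chr1:85580761-85583950, plus strand), a secreted matricellular protein that binds integrins, had levels of 8.09 in naive cells and 8.56, 9.20 and 8.90 in erCriz0, erAlec0 and erLor0. All 3 resistant lines lay above naive, by 0.47, 1.11 (2.16-fold) and 0.81. CCN2 (ENSG00000118523.6, chr6:131948176-131951372, minus strand), a related matricellular protein, had levels of 7.95, 7.41, 8.40 and 7.62. Here only erAlec0 lay above naive, by 0.45, and the changes in erCriz0 and erLor0 were −0.54 and −0.33. CCN2 thus did not follow CCN1, and between erAlec0 and erCriz0 it differed by 0.99. ANKRD1 (ENSG00000148677.6, chr10:90912096-90921276, minus strand), a nuclear ankyrin repeat protein best known from muscle, had levels of 1.40, 1.46, 1.66 and 1.52, far below the limit for an expressed gene in each line. Its changes, 0.07, 0.26 and 0.12, are those of a gene with hardly any reads and were shrunk by the rlog transformation.

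The feedback regulators had the same order of the resistant lines as CCN1. AMOTL2 (ENSG00000114019.14, chr3:134355874-134375479, minus strand), an angiomotin-like protein that binds YAP and TAZ at junctions, had levels of 7.68 in naive cells and 7.96, 8.80 and 8.41 in erCriz0, erAlec0 and erLor0. It was up in erAlec0 by 1.12 (2.18-fold), with 0.29 in erCriz0 and 0.74 in erLor0. LATS2 (ENSG00000150457.9, chr13:20973036-21061586, minus strand), a kinase that phosphorylates YAP and TAZ, had levels of 8.21, 8.76, 9.10 and 8.84, and changes of 0.55, 0.89 and 0.63. AJUBA (ENSG00000129474.16, chr14:22971177-22982551, minus strand), a LIM protein that binds LATS kinases, had levels of 10.05, 9.76, 10.07 and 9.94, a range of 0.31 over the 4 libraries. AJUBA shares exon sequence with the protein-coding gene ENSG00000259132 on its own strand and AMOTL2 with the pseudogene RPL39P5, and how the counting assigned such reads was not stated. CCN2, WWTR1 and YAP1 overlap noncoding genes on the other strand, and the authors examined strandedness with RSeQC but did not state whether counting used it, so reads of partners could be mixed.

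Within these genes alone, the order of the resistant lines differed by role, an ordering that was noticed after the values were seen. It did not hold for the further target genes described below. Of those, only FJX1 had the order erAlec0, erLor0, erCriz0. AXL, F3, CRIM1, CCDC80, NT5E, DOCK5 and TGFB2 were highest in erCriz0, and MYOF was highest in erLor0. For 6 of 6 targets and feedback regulators the level decreased in the order erAlec0, erLor0, erCriz0, as for 22.1% of expressed genes, and naive cells lay below erAlec0 in each case. ANKRD1, with hardly any reads, is among the 6. Of the coactivators and TEAD factors, 0 of 4 had this order, and 3 of 4, YAP1, WWTR1 and TEAD1, were highest in erCriz0, as were 31.2% of expressed genes. For YAP1 erCriz0 and erAlec0 were only 0.00 apart, and erLor0 exceeded erCriz0 by 0.08 for LATS2 and by 0.05 for ANKRD1. With 1 library per line, neighbors this close cannot be ordered.

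The Hippo kinases and adaptors, 8 genes from MST2 (STK3) to MOB1B, held no gene up or down in any line. Of expressed genes 2.65%, 2.46% and 1.10% were up and 1.65%, 2.07% and 0.740% down in erCriz0, erAlec0 and erLor0. With shares this small, a list of 8 genes without a call is near the background. Their median change was 0.31, 0.10 and 0.02 in erCriz0, erAlec0 and erLor0. STK3, the kinase upstream of LATS, had rlog levels of 9.45 in naive cells and 10.19, 10.04 and 9.81 in erCriz0, erAlec0 and erLor0. MAP4K4, a kinase acting beside MST, was higher only in erCriz0, by 0.70, with −0.25 in erAlec0 and −0.13 in erLor0. SAV1, the MST scaffold, differed from naive by 0.27, 0.31 and 0.32, and TAOK1, which activates MST, by 0.42, 0.37 and 0.29.

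Of 9 upstream and binding regulators, again none was up or down, which is near the same small shares of expressed genes. WTIP did not reach the limit for an expressed gene. The FERM protein FRMD6 differed from naive by 0.16, 0.86 and 0.85 in erCriz0, erAlec0 and erLor0, and the phosphatase PTPN14, which binds YAP, by 0.15, 0.75 and 0.53. WWC2, of the KIBRA family, differed from naive by 0.55, 0.75 and 0.18, and angiomotin (AMOT) by 0.79, 0.45 and 0.41. Among the other TEADs and vestigial-like cofactors, 1 of 5 genes was up in erAlec0, where 2.46% of expressed genes were. This was VGLL3, which competes with YAP and TAZ for TEADs, with levels of 6.48 in naive cells and 5.98, 7.69 and 5.57 in erCriz0, erAlec0 and erLor0. Its changes were −0.50, 1.20 and −0.92, so that erAlec0 was above naive and the other lines below. VGLL1 differed from naive by 0.02, 0.46 and 0.10 and was not expressed.

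Of 16 further genes often used as YAP and TAZ targets, FOXF2 was absent from the genes with values and 15 had values. Of these, 4, 2 and 1 were up in erCriz0, erAlec0 and erLor0, and 1 gene was down in each line. Of expressed genes 2.65%, 2.46% and 1.10% were up and 1.65%, 2.07% and 0.740% down in these lines. MYOF, a membrane repair protein, had levels of 11.13 in naive cells and 12.10, 12.27 and 12.63 in erCriz0, erAlec0 and erLor0, with changes of 0.98, 1.14 and 1.5. AXL, a receptor tyrosine kinase, differed from naive by 1.06, 0.94 and 0.98 from a naive level of 4.62, close to the limit for an expressed gene. The study named AXL among receptor kinases with higher expression in the resistant cells, so its rise is not independent evidence either. RBMS3, an RNA-binding protein, differed from naive by 0.89, 1.02 and 0.69.

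Other target genes were up in erCriz0 only by this limit. F3, tissue factor, had levels of 6.06 in naive cells and 8.54, 6.26 and 5.94 in erCriz0, erAlec0 and erLor0, and was up by 2.49 in erCriz0. NT5E, the ectonucleotidase CD73, differed from naive by 1.12, 0.70 and 0.41 in erCriz0, erAlec0 and erLor0, and CCDC80, a matrix protein, by 1.38, 0.76 and 0.01. IGFBP3, an insulin-like growth factor binding protein, was down in all 3 lines, by −1.10, −2.36 and −2.72 from a naive level of 10.03. The median over the 15 genes was 0.46, 0.21 and 0.05 in erCriz0, erAlec0 and erLor0. The order of the lines in this median was not that of CCN1, AMOTL2 and LATS2.

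**Figure D2:**
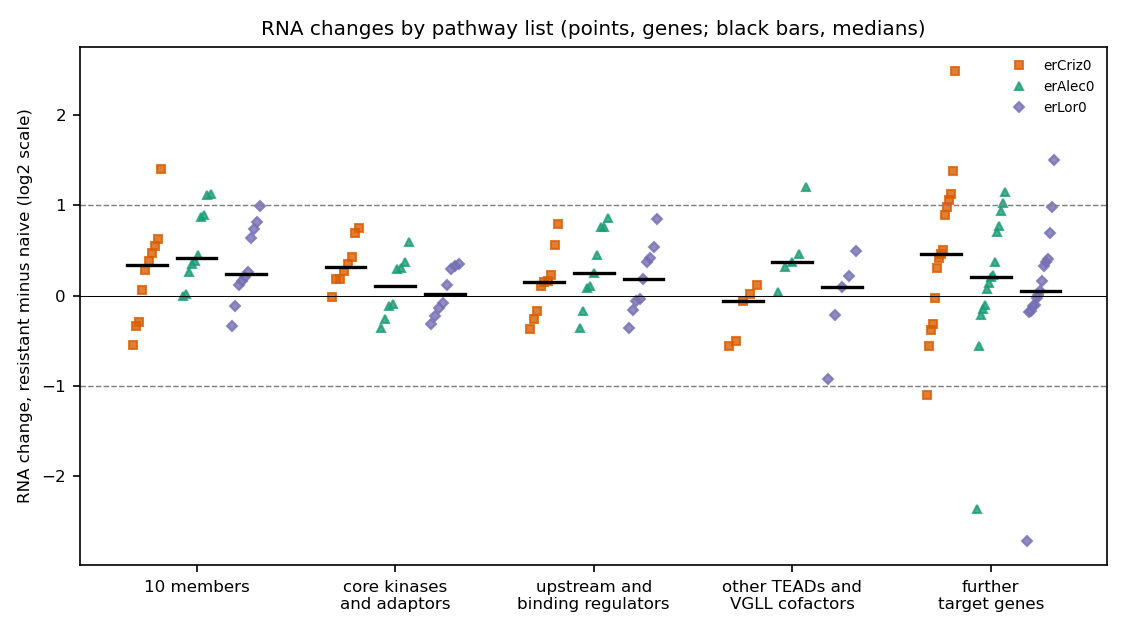
RNA changes (resistant minus naive, log2 scale) of the 10 members and of 4 lists of further pathway genes, with 1 point per gene and line, black bars at the medians and dashed lines at 1 and −1. The core kinases and the upstream regulators stay within the dashed lines, and the further target genes spread most, from IGFBP3 at −2.72 in erLor0 to F3 at 2.49 in erCriz0.

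The expressed genes nearest to each called member in their 3 RNA changes, by Euclidean distance among 12701 expressed genes, were as follows. Nearest to WWTR1 were GLIS3 (distance 0.20), MPZL2 (0.21) and CLDN1 (0.24), which were all up in erCriz0, by 1.46, 1.32 and 1.41. For CCN1 these were MUC2 (0.042), PGGHG (0.11) and PHLDB2 (0.12), and for AMOTL2 they were SMCR8 (0.060), PGGHG (0.12) and WASF3 (0.14). Within a distance of 0.25 lay 20 expressed genes for CCN1 and 18 for AMOTL2, but 3 for WWTR1.

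In H3K27ac the largest number of peaks near these genes was up in erAlec0, where the largest share of all peaks was up too. Of the 125 peaks near the 10 genes, 30 were up and 11 down in erAlec0, where 14.1% of all peaks were up and 9.41% down. In erLor0 12 were up and 9 down, against 7.45% and 8.82% of all peaks. In erCriz0 4 were up and 6 down, against 7.00% and 5.94%. As shares of the 125 peaks, those up were 24.0% in erAlec0, 9.60% in erLor0 and 3.20% in erCriz0. The median change was 0.28 in erAlec0, 0.13 in erLor0 and −0.01 in erCriz0, against 0.00 over all peaks in each line. Peaks of 1 gene lie side by side and are no independent measurements, and many are also within 20 kb of other genes. Over the 37 peaks paired with a single gene, the median was −0.15 in erAlec0, −0.17 in erLor0 and −0.26 in erCriz0. Most of these 37 are intronic peaks of TEAD1, and the rest belong to YAP1, WWTR1 and LATS2. CCN1, CCN2, ANKRD1, AMOTL2, AJUBA and TEAD4 have no such peak, so these medians do not describe them.

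**Figure D3:**
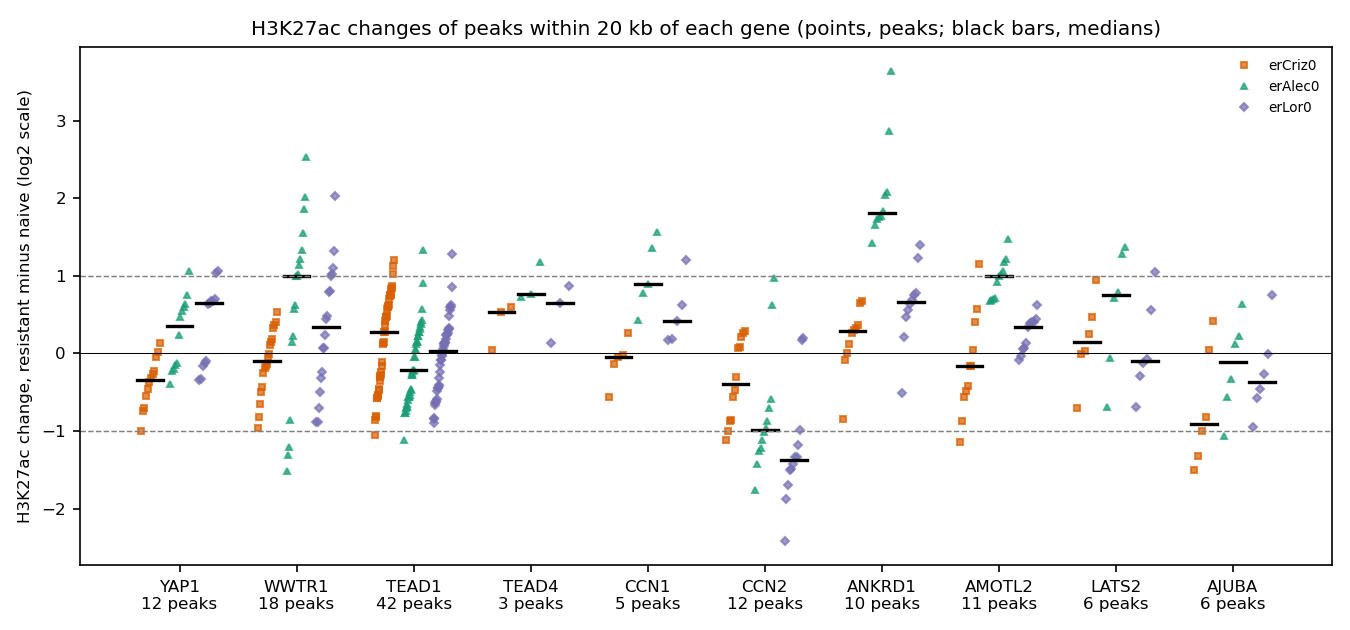
H3K27ac changes (resistant minus naive, log2 scale) of all 125 peaks within 20 kb of the 10 genes, with 1 point per peak and line, black bars at the median of each gene and dashed lines at 1 and −1. All 10 ANKRD1 peaks lie above 1 in erAlec0, and 9 of the 12 CCN2 peaks lie below −1 in erLor0.

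The start-site peak of a gene was taken as the strongest peak within 1 kb of its 5′ end. The median over the 10 start-site peaks was 1.09 in erAlec0, 0.64 in erLor0 and −0.11 in erCriz0, against 0.26, 0.41 and 0.34 over the start-site peaks of 11434 expressed genes. In erAlec0 5 of 10 were up (ANKRD1, WWTR1, CCN1, LATS2 and TEAD4) and none down, where 6.60% of those of expressed genes were up and 1.23% down. ANKRD1, counted among these 5, is not itself an expressed gene. In erLor0 2 were up (CCN1 and LATS2) and 1 down (CCN2), against 7.85% and 0.656%. In erCriz0 0 were up and 1 down (AJUBA), against 4.08% and 0.341%. With the strongest peak over the 5′ end itself, which 9 of the genes had and ANKRD1 did not, TEAD1 was up in erAlec0 and erLor0 and CCN2 was not down, so that 5 of 9 were up in erAlec0 and 3 of 9 in erLor0. The 3 start-site peaks that were higher than naive in erCriz0 were those of TEAD4, ANKRD1 and LATS2.

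**Figure D4:**
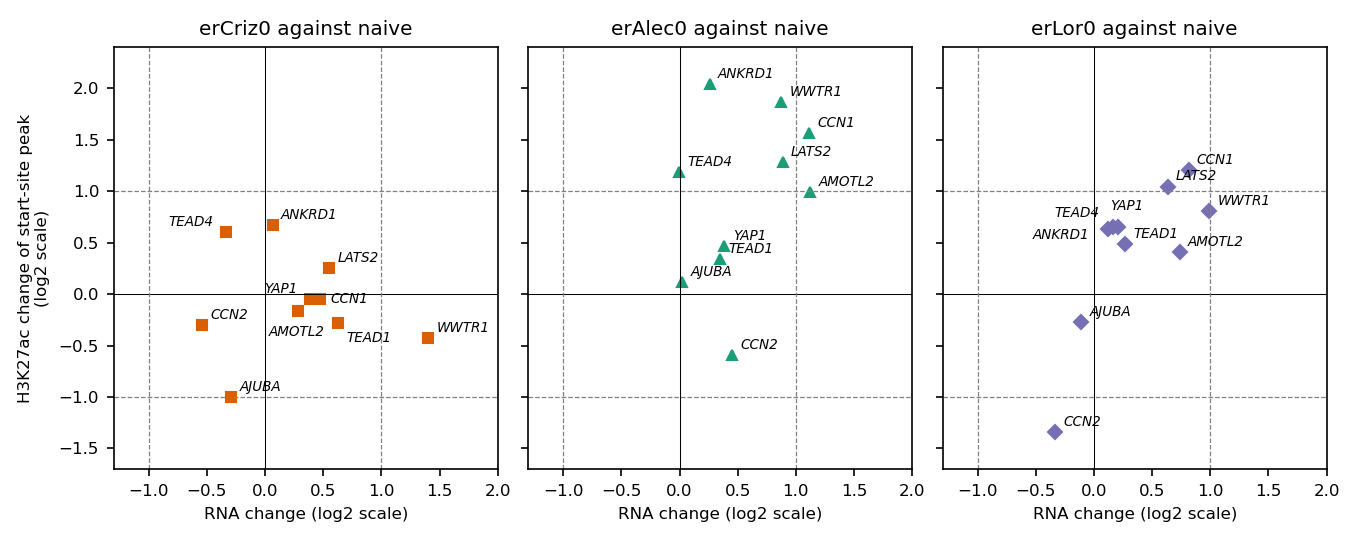
RNA change (x axis, log2 scale) against the H3K27ac change of the start-site peak (y axis, log2 scale) for the 10 genes, with 1 panel per resistant line and dashed lines at 1 and −1. In erAlec0 9 of 10 genes lie above 0 on the y axis while CCN2 lies at −0.59, and in erCriz0 WWTR1 has the largest RNA change, 1.40, with a peak change of −0.43.

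The start-site peak of CCN1 (chr1:85580057-85582520) had rlog levels of 7.10 in naive cells and 7.05, 8.67 and 8.31 in erCriz0, erAlec0 and erLor0. Naive and erCriz0 lay together, and erAlec0 and erLor0 were up by 1.56 and 1.21. All 5 peaks near CCN1 were higher than naive in erAlec0 and in erLor0, and the lowest value was −0.57 in erCriz0, at a peak just upstream (chr1:85578862-85579900). The median of the 5 exceeded that of 286 other peaks within 5 Mb by 0.89 in erAlec0 and 0.33 in erLor0, and was −0.28 relative to them in erCriz0. So RNA and chromatin of CCN1 had the same order of erAlec0 and erLor0, whereas the RNA in erCriz0 was 0.47 above naive with a start-site peak at −0.05.

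The start-site peak of LATS2 (chr13:21059879-21062071) had levels of 7.02 in naive cells and 7.27, 8.30 and 8.06 in erCriz0, erAlec0 and erLor0, with changes of 0.25, 1.28 and 1.04. An intronic peak 26716 bp into the gene (chr13:21034057-21034870) differed from naive by 0.94, 1.37 and 0.55. A small intronic peak (chr13:21020633-21020882) was lower in all 3 lines, by −0.70, −0.69 and −0.69. Of the 6 peaks of the gene, 4 were higher than naive in erAlec0 and 2 in erLor0, with medians of 0.14, 0.75 and −0.10 in erCriz0, erAlec0 and erLor0. Relative to 340 other peaks within 5 Mb the median was 0.12, 0.56 and −0.34. The strongest peak of the gene, 6103 bp long (chr13:21013048-21019150), stayed between 9.45 and 9.52 in all 4 libraries.

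AMOTL2 lay under broad acetylated domains. A 9950-bp peak over its start (chr3:134368520-134378469) had levels of 9.32 in naive cells and 9.15, 10.31 and 9.73 in erCriz0, erAlec0 and erLor0, and a 12207-bp peak in the gene body (chr3:134356213-134368419) had levels of 10.09, 9.22, 11.10 and 10.14. In erAlec0 all 11 peaks of the gene were higher than naive, by 0.68 to 1.47, and 5 of them were up, the highest at 2881 bp past the gene (chr3:134351247-134352993). The start-site peak itself, at 0.99, lay just below the limit. The 424 other peaks in a 5 Mb window around it also had a positive median in erAlec0, 0.45, and the AMOTL2 peaks exceeded it by 0.54. The part of the region in the AMOTL2 values was not tested. A downstream peak (chr3:134353626-134355711) was down by −1.15 in erCriz0 and up by 1.06 in erAlec0.

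AJUBA carried the strongest start-site peak of the group (chr14:22973743-22983561, 9819 bp), at 12.39 in naive cells and 11.39, 12.51 and 12.12 in erCriz0, erAlec0 and erLor0. It was down in erCriz0 by −1.0, with an RNA change of −0.29. All 3 small peaks upstream of it were lower than naive in every resistant line. The farthest (chr14:22985885-22986346) differed from naive by −1.51, −1.07 and −0.95 in erCriz0, erAlec0 and erLor0, the nearest by −1.32, −0.34 and −0.58, and the one between them by −0.82, −0.57 and −0.46. Downstream, a peak that also covers the start of HAUS4 (chr14:22955712-22958307) lay above naive by 0.41, 0.63 and 0.76.

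CCN2 was the exception among the targets. Its largest upstream peak (chr6:131951629-131957339, beginning 257 bp before the start) had levels of 9.28 in naive cells and 8.98, 8.69 and 7.95 in erCriz0, erAlec0 and erLor0, with changes of −0.30, −0.59 and −1.34. The next peak upstream (chr6:131957409-131959942, 6037 bp before the start) fell further, from 7.55 in naive and 7.63 in erCriz0 to 5.79 in erAlec0 and 5.13 in erLor0, changes of 0.08, −1.76 and −2.42. Of the 12 peaks none was up in any line, and 1 was down in erCriz0, compared with 6 in erAlec0 and 9 in erLor0. In all, 10 of the 12 reached log2 of 15 reads in at least 1 library, and the peak down in erCriz0 did not. The median of the 12 was −0.39, −0.98 and −1.38, which is −0.41, −1.0 and −1.12 relative to 420 other peaks within 5 Mb. A small peak of 381 bp over the start itself (chr6:131951072-131951452) had the opposite direction: 4.29, 4.57, 5.25 and 4.48, changes of 0.28, 0.97 and 0.19. All 3 promoter copies of GGAATG printed above lie in the 176 bp between this peak and the larger one, inside neither. Whether the start of CCN2 counts as down in erLor0 therefore depends on which of the peaks is taken. CCN2 RNA and the small peak were both highest in erAlec0, but in erCriz0 and erLor0 the RNA lay below naive, at −0.54 and −0.33, and the small peak above it.

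At ANKRD1 the peaks were up where the RNA was not detected above the limit. All 10 of its peaks, of which 8 reached log2 of 15 reads in at least 1 library, were up in erAlec0. Their changes there were 1.42 to 3.65, with a median of 1.80, and 2 were up in erLor0 and 0 in erCriz0. The largest, 6807 bp upstream (chr10:90928083-90932860, 4778 bp), had levels of 5.65 in naive cells and 5.91, 9.30 and 7.05 in erCriz0, erAlec0 and erLor0, changes of 0.26, 3.65 and 1.39. Naive and erCriz0 lay together, erLor0 was in between and erAlec0 far above. The farthest upstream (chr10:90935236-90935834) stood at −0.84 and −0.51 in erCriz0 and erLor0 but 1.42 in erAlec0. A neighboring peak (chr10:90932983-90934122) differed from naive by 0.12, 2.87 and 1.22. The median of the 10 peaks exceeded that of 433 other peaks within 5 Mb by 1.53 in erAlec0 and by 1.11 when the window was 2 Mb. ANKRD1 RNA nevertheless stayed at 1.66 in erAlec0. Peaks of ANKRD1 were also paired with other genes within 20 kb, so a peak near it need not belong to it.

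**Figure D5:**
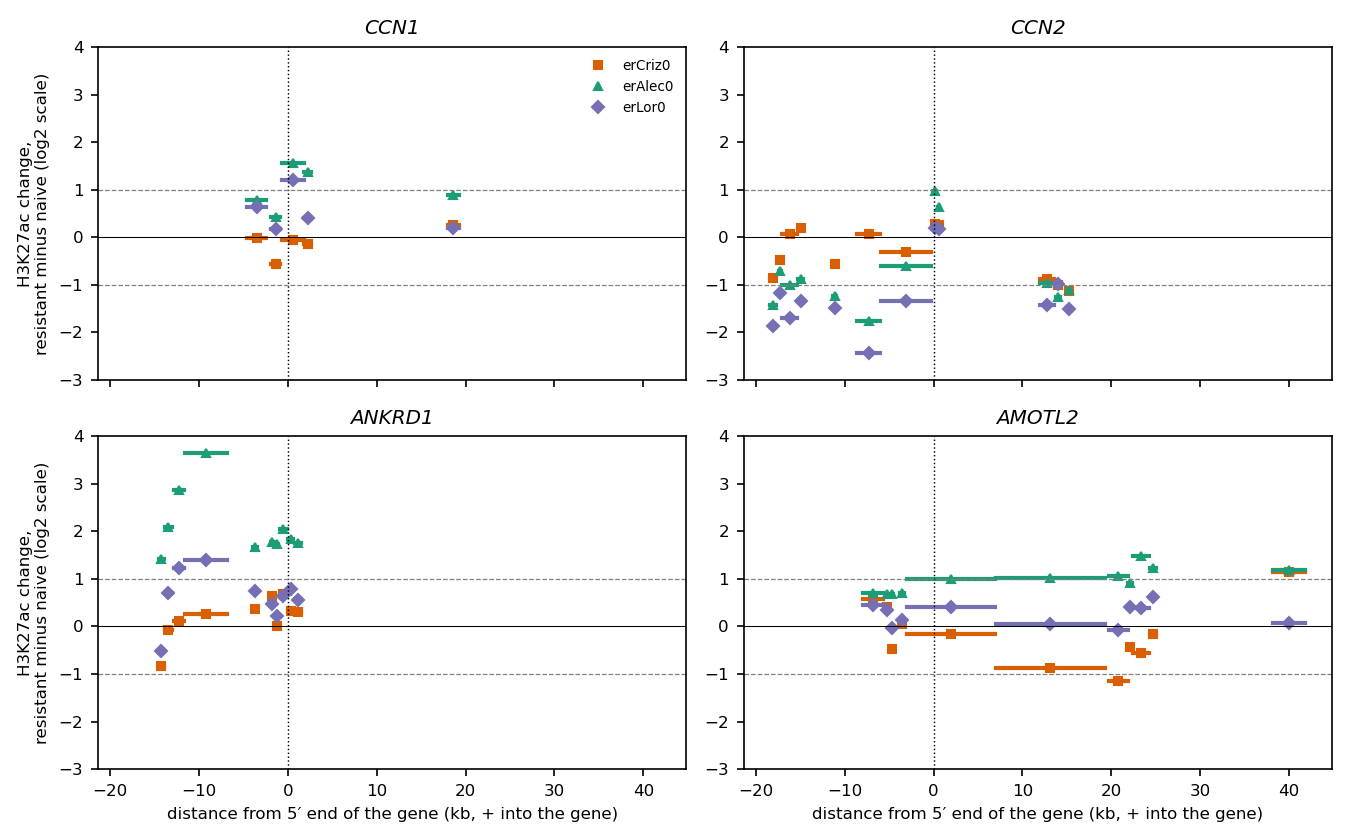
H3K27ac changes (resistant minus naive, log2 scale) of peaks near CCN1, CCN2, ANKRD1 and AMOTL2 by distance from the 5′ end of the gene (kb, positive into and past the gene), with horizontal bars for the length of each peak and dashed lines at 1 and −1. The upstream peaks of CCN2 lie below 0 in erAlec0 and erLor0, those of ANKRD1 reach 3.65 in erAlec0, and those of AMOTL2 are above 0 in erAlec0 throughout.

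The upstream peaks with the largest rise near ANKRD1 and the largest fall near CCN2 are illustrated by the 300 bases that hold most copies of GGAATG or CATTCC, in capitals, as read from hg38.
ANKRD1 upstream peak, chr10:90930672-90930971, plus strand: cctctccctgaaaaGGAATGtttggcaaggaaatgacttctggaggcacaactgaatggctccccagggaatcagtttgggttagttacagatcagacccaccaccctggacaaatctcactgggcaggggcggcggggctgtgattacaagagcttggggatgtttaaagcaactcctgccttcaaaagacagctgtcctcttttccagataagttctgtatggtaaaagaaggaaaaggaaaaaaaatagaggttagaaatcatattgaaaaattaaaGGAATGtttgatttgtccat
CCN2 upstream peak, chr6:131958570-131958869, plus strand: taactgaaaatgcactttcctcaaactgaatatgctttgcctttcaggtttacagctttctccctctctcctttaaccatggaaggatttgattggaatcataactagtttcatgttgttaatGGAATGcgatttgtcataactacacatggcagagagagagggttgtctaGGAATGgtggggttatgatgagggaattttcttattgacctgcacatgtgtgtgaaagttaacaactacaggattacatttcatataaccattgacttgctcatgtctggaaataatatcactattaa

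The ANKRD1 peak holds 7 copies in 4778 bp and the CCN2 peak 2 in 2534 bp, and each window holds 2. So copies were present in the peak that rose and in the one that fell. Over all 125 peaks the density was 0.719 copies per kb, against 0.597 per kb over all 126470 peaks, and 57 of 125 peaks (45.6%) held at least 1, against 37.0%. AP-1 letters TGANTCA were found at 0.383 per kb, against 0.356 per kb. By gene the density of GGAATG ranged from 0.443 per kb at YAP1 to 1.16 per kb at ANKRD1.

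At the coactivators, YAP1 had a start-site peak (chr11:102109414-102113923) at 9.42 in naive cells and 9.37, 9.89 and 10.08 in erCriz0, erAlec0 and erLor0, with changes of −0.05, 0.46 and 0.66. Of its 12 peaks 1 was up in erAlec0 and 2 in erLor0, all within a cluster of intronic peaks that begin 42872 to 47769 bp into the gene, and none was down. One of them (chr11:102157527-102158102) was up by 1.06 in erAlec0 and in erLor0, and its neighbor (chr11:102156194-102157398) lay at −0.75 in erCriz0. In erCriz0 10 of the 12 were lower than naive, with a median of −0.34, although YAP1 RNA was 0.39 above.

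WWTR1 had 18 peaks, of which 10 reached log2 of 15 reads in at least 1 library. Among all 18, 8 were up and 3 down in erAlec0, 5 up in erLor0 and 0 up in erCriz0. Some of those up and most of those down in erAlec0 did not reach log2 of 15. Relative to 262 other peaks within 5 Mb, the median of the 18 was −0.09, 0.81 and 0.36 in erCriz0, erAlec0 and erLor0. The peak that spans the RefSeq start printed above (chr3:149656759-149661311) had levels of 8.57 in naive cells and 9.10, 9.79 and 9.57 in erCriz0, erAlec0 and erLor0, changes of 0.53, 1.22 and 1.00. The peak over the most distant 5′ end, 75403 bp away (chr3:149736417-149737897), differed from naive by −0.43, 1.86 and 0.81. Farther into the gene, an intronic peak (chr3:149535206-149536741) had levels of 4.03, 4.14, 6.56 and 6.05 and changes of 0.11, 2.53 and 2.02, with no copy of GGAATG or CATTCC in its 1536 bp. The largest acetylated domain of the gene, 12647 bp long (chr3:149572344-149584990), went the other way, at 10.48, 10.43, 9.27 and 9.59, changes of −0.05, −1.21 and −0.89. RNA of WWTR1 was highest in erCriz0, where only the RefSeq-start peak was more than 0.5 above naive among all 18.

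Of the 42 peaks near TEAD1, the one over the 5′ end (chr11:12673292-12674942) differed from naive by 0.62, 1.33 and 1.28, and a stronger neighbor (chr11:12675124-12677035), which was the start-site peak by the rule above, by −0.29, 0.34 and 0.49. For all 42 peaks together, medians of 0.27, −0.21 and 0.04 were found in erCriz0, erAlec0 and erLor0. In erCriz0 3 of them were up, all intronic, by 1.20, 1.13 and 1.02, and 1 was down. In erAlec0 1 was up and 1 down, and in erLor0 1 was up and 0 down. The peak up by 1.02 in erCriz0 and the peaks that were down did not reach log2 of 15 reads in any library. The lowest value among those reaching log2 of 15, −0.85 in erLor0, was at an intronic peak (chr11:12716812-12717125). TEAD4 had 3 peaks, all higher than naive in every resistant line. Their median exceeded that of 481 other peaks within 5 Mb by 0.52, 0.57 and 0.43 in erCriz0, erAlec0 and erLor0. With a window of 2 Mb, where other peaks had medians of 0.17, 0.55 and 0.47, the excess was 0.36, 0.21 and 0.18. The part of the region in the TEAD4 values was not tested. The start-site peak of TEAD4 (chr12:2957541-2961940) had levels of 8.90, 9.50, 10.08 and 9.55, changes of 0.60, 1.18 and 0.65. A small peak just upstream (chr12:2957147-2957528) had changes of 0.04, 0.73 and 0.13, while the RNA was within 0.33 of naive in each line. In bulk samples, fewer cells carrying a mark or transcript and less of it per cell cannot be told apart.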

How the data were processed

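The 4 lines gave 1 RNA-seq and 1 H3K27ac ChIP-seq library each. Their values came from a table of peak and gene pairs at most 20 kb apart, which the authors deposited as rlog values on a log2 scale. For RNA the authors aligned MiSeq reads to hg38 with HISAT2, examined strandedness with RSeQC, counted with HTSeq-count under a strand setting that was not stated, and ran the DESeq2 rlog function. ChIP-seq reads were aligned with BWA, freed of duplicates and filtered at a mapping quality of 25, MACS2 peaks (q of 0.05) were merged over 4 samples and cleared of blacklisted regions, and featureCounts and rlog followed. Versions and input correction are not given in the sources used here. The authors' correlations per pair and their p-values were not used. Depth is unknown from rlog values, so no counting error is given.

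Genes were found through GENCODE release 44. Levels per kilobase are rlog minus the log2 of exon length in kb, with all annotated exons of a gene merged. Members and lists were chosen with earlier results of these data known. Named were all members, pathway genes changed by 1 or among the top 2 of their list in a line, start-site peaks, and each member's peaks with the largest rise and fall. Other peaks were named after their values were seen. No test was run, as no line has replicates. On simulated data, 200 of 200 genes raised among 12701 were called and 0 others. There the noise was set far below the limit and the rise above it, so this outcome was fixed by the settings. It checks the code only and gives no error rate for calls between single real libraries. Alternatives were other limits, centring, quantile normalization, filters, start-site rules and leaving out members. Python 3.11.15, numpy 2.4.6, pandas 2.3.3 and matplotlib 3.10.9 were used.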

Additional observations from a re-analysis of the deposited data

Results flagged for a closer look

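A peak of 2086 bp downstream of AMOTL2 (chr3:134353626-134355711) moved in opposite directions in 2 resistant lines, each past the limit: its rlog level was 6.34 in naive cells and 5.19, 7.40 and 6.26 in erCriz0, erAlec0 and erLor0. The changes were −1.15 in erCriz0 and 1.06 in erAlec0, 2.21 apart. The difference was not tested, since each line has 1 library. No other peak of the 10 genes, and none of the RNA values of the members or the pathway lists, passed the limit in opposite directions.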

How the results depend on the processing

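With 1 library per line, no alternative carries an error, and a value was taken as moved when it shifted by more than 0.1 or a count by more than 1.5-fold. The limit moved counts most. At 1.5-fold, members up by RNA were 2 in erCriz0, 4 in erAlec0 and 4 in erLor0, member peaks up were 19, 52 and 32, and peaks down 22, 25 and 23. At a limit of 2, members up were 0 in erCriz0 and 0 in erAlec0, peaks up 0, 6 and 1, and peaks down 0, 0 and 1. Centring or quantile normalization put 1 member, WWTR1, up in erLor0, and quantile normalization left 2 peaks up in erCriz0. The median RNA change stayed within 0.29 to 0.39 in erCriz0, 0.39 to 0.45 in erAlec0 and 0.21 to 0.26 in erLor0 when each member was left out. Median peak changes depended on which peaks counted. Over peaks paired with 1 gene, which lie mostly at TEAD1 and otherwise at YAP1, WWTR1 and LATS2, they were below 0 in each line. The values were −0.26 in erCriz0, −0.15 in erAlec0 and −0.17 in erLor0. Over peaks reaching log2 of 15 the erAlec0 median was 0.43, as a median per member 0.76 in erAlec0 and 0.34 in erLor0, and after centring 0.23 in erLor0. Median start-site changes became −0.40, 0.97 and 0.43 under quantile normalization, and 0.74 in erLor0 after centring, both chosen after seeing the data. CCN2 reversed in erLor0, from −1.34 to 0.19, when the peak over its 5′ end or its RefSeq start (added after seeing the data) was used. With the peak over the 5′ end, start-site peaks up were 5 of 9 in erAlec0 and 3 of 9 in erLor0. The order erAlec0, erLor0, erCriz0 held for 6 of 6 targets and feedback regulators under both scalings, also added then. Of 296 alternative values, 230 were within these tolerances. This total includes start-site rules that chose the same peak and so could not differ. It also includes counts of members down, where none was called under any setting. Of the alternative counts of members up by RNA, 7 moved and 5 did not. Of the alternative median peak changes, 7 moved and 11 did not. No paired analysis was possible because the result comes from no test and each line has 1 library.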
